A study of Mus musculus with 12 samples.

Results

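The 10 genes described here were 7 secreted matrix glycoproteins, Spp1, Fn1, Vcan, Thbs1, Tgfbi, Ecm1 and Sparc, and 3 membrane proteins of macrophages that take part in tissue repair, Gpnmb, Trem2 and Cd9. They were taken by gene symbol from 52553 features, and all 10 were among the 20135 features that passed a filter on low counts and were tested. The names were chosen by function and with their levels over these same 4 groups known from earlier results, and no threshold on a value separated them from other genes. The fold changes and adjusted p-values below therefore come from fits to the whole table, describe these libraries and are no independent evidence about the 10 genes as a set.

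RNA was sequenced from CD115+ cells of male C57BL/6 mice, labelled as monocytes of blood or spleen, in 4 groups of 3 libraries. CD115 is the receptor for the growth factor that keeps monocytes and macrophages alive. The intact groups had an untouched liver and spleen, and their cells came from blood or from spleen. The resected groups had 70% of the liver removed 24 h earlier with the spleen left in place, and their cells again came from blood or from spleen. Each library pooled the cells of 5 mice. No sham operation was described for the mice that gave these libraries, so surgery and loss of liver tissue cannot be told apart. Spleens were crushed and digested with collagenase and their red cells were lysed, whereas blood went directly onto a density gradient, so tissue and preparation cannot be told apart either. All 4 groups were then sorted on magnetic anti-CD115 beads. The labels do not say whether the pools were made on separate days, so p-values measure the spread between these libraries only.

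Matrix glycoproteins are secreted proteins that bind cells through integrins, syndecans or CD44 and tie those cells to collagen and hyaluronan. Monocytes that enter injured liver become macrophages, and those that clear debris and lipid are known to carry Trem2, Cd9, Gpnmb and Spp1. Several of the secreted proteins are also made by hepatocytes, fibroblasts or platelets.

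The libraries held 36990033 to 46401368 estimated counts each, so that the depth was similar throughout. Csf1r, the gene of the CD115 protein used for the sort, lay between 209 and 1192 CPM (counts per 1000000, scaled by the trimmed mean of M values) in the 12 libraries, and each of the 7 monocyte markers examined was above 3 counts in at least 1 library of every group. Haemoglobin genes took 13.2% to 34.2% of the gene counts in blood and 0.0814% to 3.47% in spleen. The third resected spleen library held the highest level of all 10 genes within its group. The third intact blood library correlated least with its own group (mean correlation of log2 levels 0.885, against 0.915 to 0.948 elsewhere), and it was the lowest of its group for 6 of the 10 genes and the highest for the other 4.

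Promoter sequences are shown for Spp1, which had the largest fold change of the 10 genes after resection in blood. They are also shown for Ecm1 and Trem2, the 2 of the 8 genes with a matched promoter that hold the letters searched for AP-1. Each is the 250 bases that end just before the RefSeq transcription start, on the gene's own strand, in build GRCm38.p6. Capitals mark 4 motifs, read on either strand. The first is the AP-1 motif that Fos and Jun dimers bind, searched as TGANTCA, where N was any base. The second is the core motif of the RUNX family of blood cell factors, searched as TGTGGT. The third is the motif of PU.1, the factor that myeloid cells depend on, searched as GAGGAAG. The last is the TATA element near which transcription can start, searched as TATAAA.
Spp1 promoter, chr5:104434861-104435110, plus strand: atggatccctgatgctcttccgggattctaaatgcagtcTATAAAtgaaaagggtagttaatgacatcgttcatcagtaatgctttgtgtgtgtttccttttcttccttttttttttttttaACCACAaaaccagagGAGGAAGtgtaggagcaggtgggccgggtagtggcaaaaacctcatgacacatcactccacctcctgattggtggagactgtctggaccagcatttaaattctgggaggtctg
Ecm1 promoter, chr3:95739570-95739819, minus strand: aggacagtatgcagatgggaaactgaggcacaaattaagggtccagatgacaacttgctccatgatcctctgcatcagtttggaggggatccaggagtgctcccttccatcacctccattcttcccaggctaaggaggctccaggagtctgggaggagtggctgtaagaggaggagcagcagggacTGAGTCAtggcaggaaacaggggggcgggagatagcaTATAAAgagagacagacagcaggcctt
Trem2 promoter, chr17:48346151-48346400, plus strand: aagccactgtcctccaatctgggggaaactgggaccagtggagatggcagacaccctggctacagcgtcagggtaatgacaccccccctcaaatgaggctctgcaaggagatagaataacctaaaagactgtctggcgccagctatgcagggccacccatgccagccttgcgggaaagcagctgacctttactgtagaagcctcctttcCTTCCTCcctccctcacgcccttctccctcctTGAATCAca
A promoter was matched for 8 of the 10 genes, as 9 promoters because Spp1 has a pair of starts, among 32851 promoters in all. The AP-1 letters were present at Ecm1 as TGAGTCA, at positions -64 to -58 counted from the start, and at Trem2 as TGAATCA, at -9 to -3. They occurred in 6.75% of all promoters. The RUNX letters were found at Spp1 and Gpnmb and in 14.0% of all promoters, and the PU.1 letters at Spp1 and Trem2 and in 10.6%. The TATA letters stood at Spp1, at -211 to -206, and at Ecm1, at -27 to -22, against 12.4% of all promoters. The SMAD letters CAGACA were in 4 of the 9 promoters (17.1% of all), the GC box GGGCGG in 4 (32.7%), and the CEBP letters TTGCNNAA in the second Spp1 promoter (9.56%). The E-box letters CACGTG were in none of the 9 windows and in 6.02% of all promoters. The hypoxia element ACGTG, which lies within that E-box, was also in none, against 16.6% of all. The cyclic AMP element TGACGTCA was in none, against 1.55% of all. A match is a description of the letters and no evidence that a factor binds there.

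After resection, the blood libraries held more RNA of 7 of the 10 genes by the test used here. A gene was called when edgeR's quasi-likelihood test gave an adjusted p (Benjamini-Hochberg over the 20135 features) under 0.05 with a log2 fold change above 1 in size, 1 unit of log2 being a factor of 2. Spp1, Vcan, Thbs1, Tgfbi, Trem2, Cd9 and Sparc were called higher, none was called lower, and Fn1, Gpnmb and Ecm1 were not called. Across all features 7.80% were called higher, and no inference about the set is drawn from the comparison with that share because these values were known when the genes were chosen. DESeq2 called all 10 higher, and 10.3% of all features. All 10 genes had every resected blood library above every intact one, which held for 19.4% of all features. Their median log2 fold change was 2.55, beside -0.10 over all features. In pooled bulk cells, more cells that carry a transcript and more transcript per cell cannot be told apart.

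**Figure D1:**
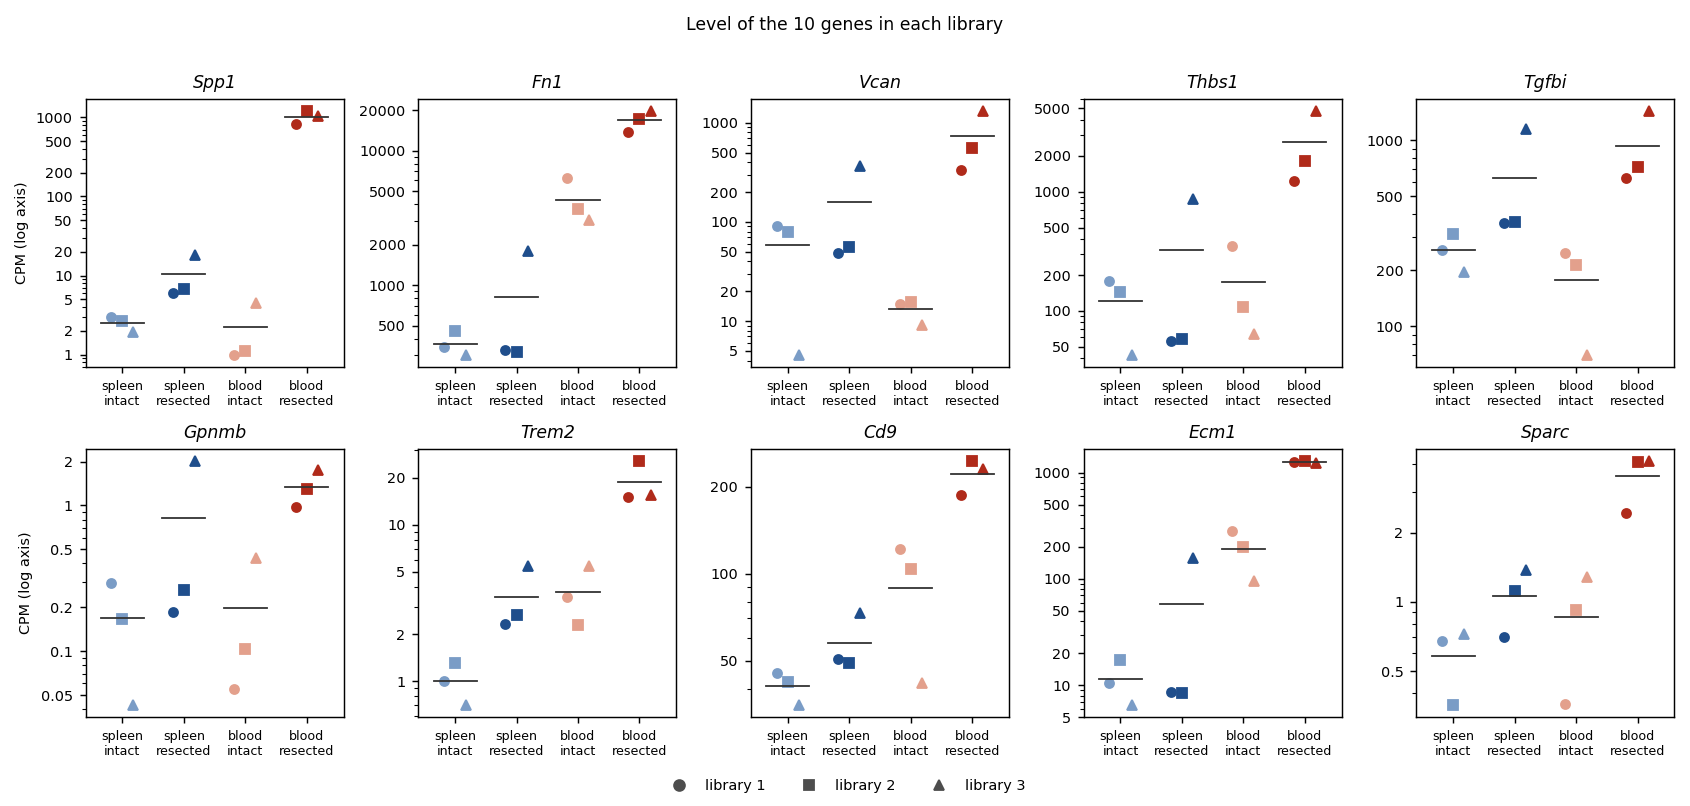
Level of each of the 10 genes in every library, in CPM on a log axis, for spleen and blood in intact and resected mice. Points are libraries, with a marker shape for the library number, and the bar is the mean of the 3 libraries. In every panel the 3 resected blood libraries lie above the 3 intact blood libraries, and in the resected spleen group library 3 is the highest point.

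Spp1 encodes osteopontin, a secreted phosphoprotein that binds integrins and CD44. Its level in resected blood was 815, 1203 and 1042 CPM in libraries 1, 2 and 3, against 0.991, 1.13 and 4.52 CPM in intact blood. In spleen it was 2.99, 2.67 and 1.94 CPM in intact and 5.98, 6.88 and 18.3 CPM in resected mice. The resected blood libraries stood apart from the other 9, and the resected spleen libraries in turn lay above both intact groups, which overlapped each other. The order of group means was resected blood (1020.3 ± 195 CPM, SD, n = 3), resected spleen (10.4 ± 6.89), intact spleen (2.53 ± 0.539) and intact blood (2.21 ± 2.00). Its log2 fold change after resection in blood was 8.83 (SE 0.80, edgeR adjusted p = 0.000428), and it remained called when any 1 library was left out, with values from 8.56 to 9.90. The highest of these came from leaving out the third intact blood library. The counts behind it were 26725 to 37029 per resected library and 36 to 207 per intact one.

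Fn1 encodes fibronectin, the fibril-forming ligand of the Itga5 and Itgb1 integrin pair. It was the most abundant of the 10 genes in blood, at 6229.9, 3672 and 3051 CPM in intact and 13799, 17085 and 19748 CPM in resected libraries. In spleen the levels were 348, 452 and 301 CPM in intact and 328, 319 and 1792 CPM in resected libraries. The groups of blood did not overlap each other or those of spleen, and within spleen the third resected library alone lay above the intact range. Group means ran from resected blood (16877 ± 2980.2 CPM) through intact blood (4318 ± 1685) and resected spleen (813 ± 848) to intact spleen (367 ± 77.6), and the last pair overlapped. The fitted log2 change in blood was 1.97 (SE 0.63, edgeR adjusted p = 0.0508), just outside the call. It passed the threshold at 1.96 when the first, the second or the third resected spleen library was left out, and at 1.98 with DESeq2. Fn1 alone made up 1.07% to 1.54% of all gene counts in resected blood, and 66.3% to 91.3% of the counts of the 10 genes in the blood libraries.

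Vcan encodes versican, a large chondroitin sulphate proteoglycan that binds hyaluronan. Intact blood held 14.7, 15.7 and 9.07 CPM and resected blood 337, 560.1 and 1318 CPM. Intact spleen held 91.5, 78.7 and 4.53 CPM and resected spleen 49.0, 56.0 and 366 CPM. The blood groups did not overlap, while the ranges of the other neighbours in the order resected blood, resected spleen, intact spleen, intact blood all did. The log2 fold change after resection in blood was 5.81 (SE 1.25, edgeR adjusted p = 0.0109), called in every fit that left out 1 library, with values from 5.11, without the third resected blood library, to 6.16.

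Thbs1 encodes thrombospondin-1, which binds Cd47 and Cd36 and can release active TGF-beta from its latent form. Its levels in intact blood were 349.6, 108 and 63.8 CPM and in resected blood 1222, 1798 and 4769 CPM. In spleen, intact libraries held 179, 145 and 42.5 CPM and resected libraries 56.4, 57.6 and 862 CPM. Resected blood lay above all other libraries, and the remaining groups overlapped. Its log2 fold change in blood was 3.90 (SE 1.23, edgeR adjusted p = 0.0479), which was close to the threshold. The call was lost without any 1 of the 3 intact spleen, 3 intact blood or 3 resected blood libraries, where the value ranged from 3.12 (the third resected blood library left out) to 4.94 (the first intact blood library left out).

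Tgfbi encodes a secreted adhesion protein named for its induction by TGF-beta. Intact blood held 248, 212 and 69.8 CPM and resected blood 626, 714 and 1439 CPM, and the groups did not overlap. Intact spleen held 258, 313 and 196 CPM and resected spleen 359, 364 and 1152 CPM, again without overlap. Resected blood (926 ± 446 CPM) overlapped resected spleen (625 ± 456), and intact spleen (256 ± 58.4) overlapped intact blood (177 ± 94.1). The fitted log2 change in blood was 2.39 (SE 0.60, edgeR adjusted p = 0.0208). It was no longer called without the second intact blood library (2.53) or without the third resected blood library (1.93).

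Ecm1 encodes a secreted glycoprotein of the skin and liver matrix. It lay at 281, 199 and 95.1 CPM in intact blood and within a narrow range of 1259.9, 1284 and 1225 CPM in resected blood. Spleen held 10.5, 17.2 and 6.49 CPM in intact libraries and 8.64, 8.47 and 157 CPM in resected ones. The blood groups did not overlap, but the third resected spleen library, at 18.4 times the mean of the other 2 of its group, reached into the range of intact blood. The log2 fold change in blood was 2.71 (SE 1.03, edgeR adjusted p = 0.0871) and was not called. With that spleen library left out the value stayed at 2.71 and the adjusted p became 0.00412, and DESeq2 called it at 2.72.

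Sparc encodes osteonectin, a collagen-binding protein abundant in fibroblasts and platelets. Its levels were low, at 0.358, 0.925 and 1.29 CPM in intact and 2.44, 4.08 and 4.11 CPM in resected blood. In spleen they were 0.673, 0.355 and 0.724 CPM in intact and 0.701, 1.11 and 1.38 CPM in resected libraries. Resected blood lay above all the others, and the other 3 groups overlapped. Its log2 fold change in blood was 2.04 (SE 0.53, edgeR adjusted p = 0.0234). The call was lost without the second (1.96) or the third (1.97) resected blood library.

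Of the membrane proteins, Trem2 is a receptor for lipids and cell debris that signals through the adaptor Tyrobp. Trem2 lay at 3.47, 2.29 and 5.48 CPM in intact and at 15.0, 25.6 and 15.5 CPM in resected blood. In spleen it was 1.01, 1.31 and 0.702 CPM in intact and 2.31, 2.66 and 5.46 CPM in resected libraries. Resected blood (18.7 ± 6.02 CPM) stood above intact blood (3.75 ± 1.62) and resected spleen (3.48 ± 1.72), which overlapped, and intact spleen (1.01 ± 0.306) stood below all of them. The fitted log2 change in blood was 2.32 (SE 0.46, edgeR adjusted p = 0.00718), with values from 2.05 to 2.69 and the call kept when any 1 library was left out.

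Cd9 encodes a tetraspanin that organises integrins in the membrane and is abundant on platelets as well as macrophages. Intact blood held 122, 104 and 42.0 CPM and resected blood 187, 245 and 229 CPM. Intact spleen held 45.2, 42.0 and 35.1 CPM and resected spleen 50.6, 49.3 and 73.3 CPM. Neither tissue overlapped between intact and resected mice, whereas intact blood overlapped both spleen groups through the third library. The log2 fold change in blood was 1.31 (SE 0.34, edgeR adjusted p = 0.0231). It fell outside the call without the second intact blood library (1.43), the second resected blood library (1.21) or the third (1.29), and without the third intact blood library, where the size was 0.96.

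Gpnmb encodes a transmembrane glycoprotein of lysosomes that is known from lipid-laden macrophages. It was the rarest of the 10, with 32, 38 and 62 counts in resected blood (0.976, 1.29 and 1.75 CPM) and 2 to 20 counts in intact blood (0.0550, 0.103 and 0.437 CPM). In spleen it was 0.295, 0.167 and 0.0426 CPM in intact and 0.187, 0.262 and 2.02 CPM in resected libraries. It was the only one of the 10 with under 10 counts in some library, and resected blood the only group where every library reached 10 counts. Its log2 fold change in blood was 2.72 (SE 1.10, edgeR adjusted p = 0.105), not called by edgeR, and 4.03 without the third intact blood library, where it was not called either. DESeq2 called it at 2.79 (adjusted p = 0.0378), and edgeR called it at 4.03 (adjusted p = 0.0126) with that library and the third resected spleen library both left out.

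**Figure D2:**
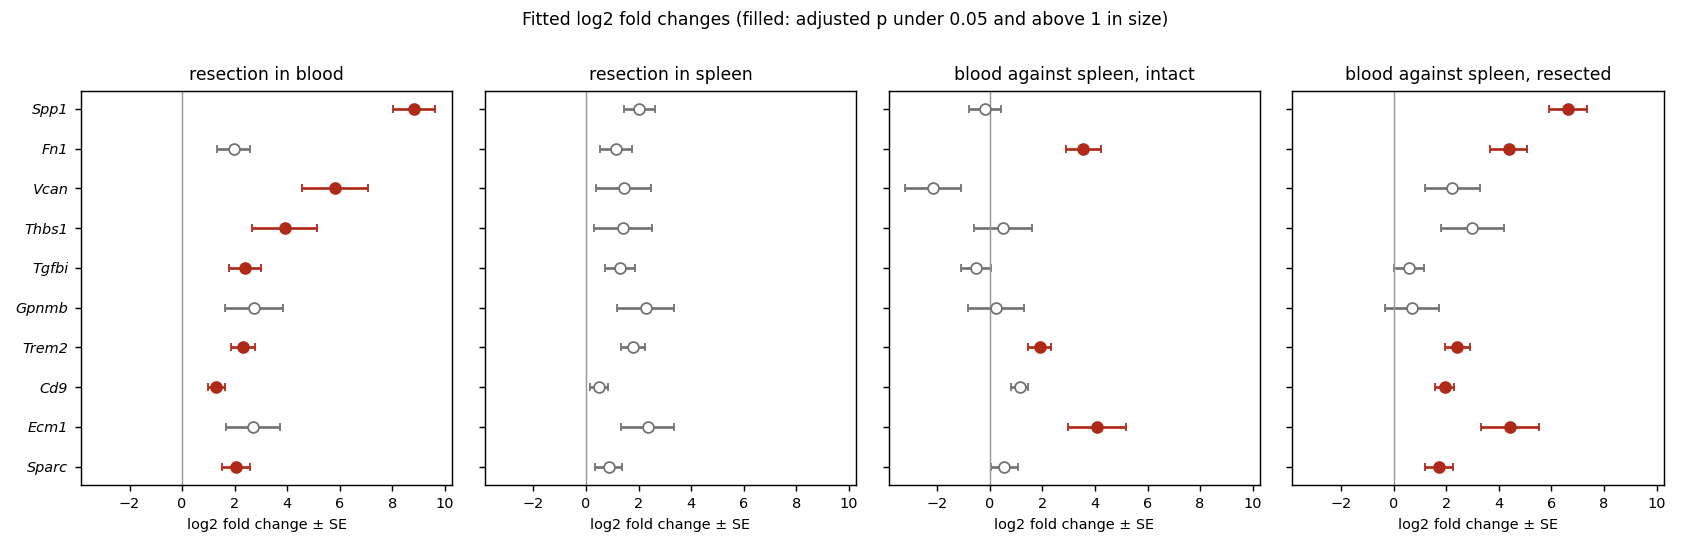
Fitted log2 fold change of each gene with its standard error in 4 comparisons, resected against intact in blood and in spleen and blood against spleen in intact and in resected mice. Filled points were called, 7 of 10 in blood after resection, 0 in spleen, 3 between intact tissues and 6 between resected tissues.

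In the spleen libraries none of the 10 genes was called after resection by edgeR's quasi-likelihood test. Across all features 0.780% were called higher in that comparison. All 10 fold changes were above 0, with a median log2 value of 1.42 beside 0.05 over all features, 3 genes (Spp1, Trem2 and Ecm1) had an unadjusted p under 0.05, and DESeq2 called 2 of them, Spp1 and Trem2, where it called 4.75% of all features higher. Every resected spleen library lay above every intact one for 4 genes, Spp1, Tgfbi, Trem2 and Cd9, which held for 17.4% of all features. The log2 fold change was 2.04 (SE 0.60) for Spp1, 1.78 (SE 0.45) for Trem2, 1.29 (SE 0.58) for Tgfbi and 0.50 (SE 0.34) for Cd9, with adjusted p-values from edgeR of 0.102, 0.0709, 0.244 and 0.431. Spp1 (2.03) and Trem2 (1.78) were called when the third intact blood library was left out, which changes the filter, the scaling and the shared estimate of the spread but not the spleen libraries.

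Several of these values rested on the third resected spleen library. That library exceeded the mean of the other 2 of its group 5.54-fold for Fn1, 6.98-fold for Vcan, 15.1-fold for Thbs1, 18.4-fold for Ecm1, 8.98-fold for Gpnmb and 1.52-fold for Sparc. With it, the log2 fold changes in spleen were 1.15 for Fn1, 1.43 for Vcan, 1.41 for Thbs1 and 2.35 for Ecm1. Without it they were -0.18, -0.15, -1.10 and -0.41, so that the direction turned for these 4 genes. Spp1 moved to 1.34 and Trem2 to 1.30 without it and kept their direction. Gpnmb moved from 2.27 to 0.41, Tgfbi from 1.29 to 0.50 and Sparc from 0.86 to 0.64.

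The same library stood apart in its cell type markers. Its summed level of 9 neutrophil markers was 14449 CPM, against 5062 and 5377 CPM in the other 2 resected spleen libraries and 855 to 1889 CPM in intact spleen. The summed level of the 7 monocyte markers was 2935 CPM in it, against 1480.1 and 1741 CPM. Its 8 red pulp macrophage markers summed to 1573 CPM, the lowest of the resected spleen group, whose other libraries were at 3314 and 4851 CPM. The part of these differences in the values of the 10 genes was not tested.

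**Figure D3:**
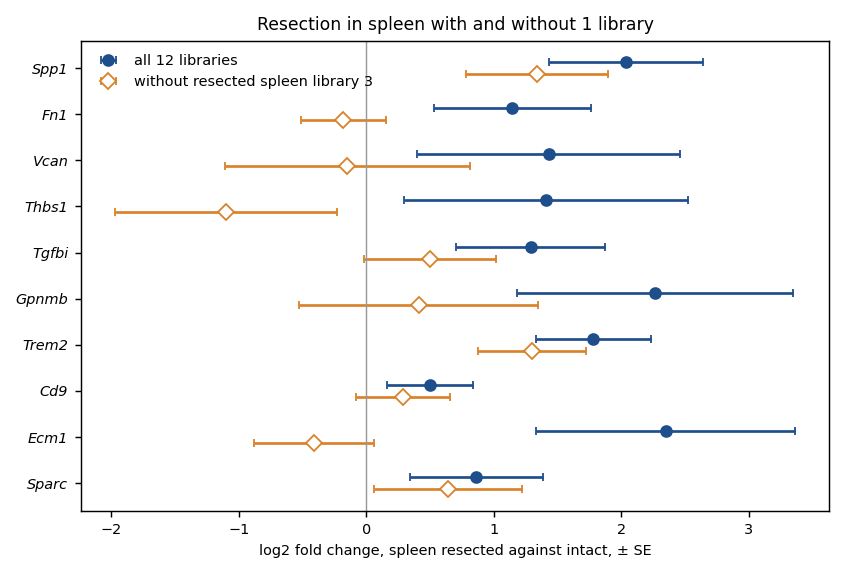
Log2 fold change of each gene in resected against intact spleen with its standard error, from all 12 libraries (filled circles) and without the third resected spleen library (open diamonds). Without it Fn1, Vcan, Thbs1 and Ecm1 lie below 0, while Spp1 (1.34) and Trem2 (1.30) stay above it.

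By edgeR's quasi-likelihood test, Spp1 was the only one of the 10 genes whose response to resection was called different between tissues. The difference of the log2 fold changes, blood minus spleen, was 6.80 (SE 0.90, edgeR adjusted p = 0.0317). In all, 0.219% of features were called in that direction. The call was lost without any 1 of the 3 intact spleen libraries, of the first or second resected spleen library, of the second intact blood library, or of the second or the third resected blood library, with values from 6.52 upward, and the value was 7.87 without the third intact blood library. Vcan followed with 4.38 (SE 1.50, edgeR adjusted p = 0.204), and DESeq2 called it as well as Spp1, at 4.42 (adjusted p = 0.0184), where DESeq2 called 3.26% of all features in that direction. All 10 differences were above 0, with a median of 0.96 beside -0.12 over all features. Without the third resected spleen library the difference moved from 0.82 to 2.15 for Fn1, from 2.49 to 5.00 for Thbs1, to 3.12 for Ecm1 and to 2.31 for Gpnmb, none of them called. With the third intact blood library left out as well, edgeR called Ecm1 beside Spp1, at 2.79 (adjusted p = 0.0441).

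Between tissues in intact mice, the blood libraries held more Fn1, Ecm1 and Trem2 than the spleen libraries. These 3 of the 10 genes were called higher in blood, none lower, and 3.86% of all features were called higher. The log2 fold change was 3.56 for Fn1 (SE 0.67, edgeR adjusted p = 0.0130), 4.07 for Ecm1 (SE 1.09, 0.0454) and 1.89 for Trem2 (SE 0.46, 0.0310). These 3 genes were also those whose blood libraries all lay above the spleen libraries, as did 13.6% of all features. The values of the other 7 genes ran from -2.15 for Vcan (SE 1.06) to 1.13 for Cd9 (SE 0.34), and the median of the 10 was 0.53 beside -0.02 over all features. The calls were sensitive to single libraries. Fn1 lost its call without the first (3.62) or the third (3.53) intact spleen library, Ecm1 without any 1 of 8 libraries (3.74 to 4.61, all but the 3 resected spleen libraries and the third intact blood library) and Trem2 without any 1 of 5 (1.61 to 2.23, the 3 intact spleen libraries and the first and the third intact blood libraries). Cd9 was called at 1.57 without the third intact blood library, and at 1.21 by DESeq2, which called 6.87% of all features higher.

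After resection the distance between tissues covered more of the genes. Spp1, Fn1, Trem2, Cd9, Ecm1 and Sparc were called higher in blood than in spleen, none was called lower, and 6.28% of all features were called higher. The log2 fold changes were 6.62 for Spp1 (SE 0.73, edgeR adjusted p = 0.000698), 4.38 for Fn1 (SE 0.70, 0.00330) and 4.43 for Ecm1 (SE 1.11, 0.0220). They were 2.43 for Trem2 (SE 0.46), 1.93 for Cd9 (SE 0.35) and 1.73 for Sparc (SE 0.53), with adjusted p-values from edgeR of 0.00669, 0.00551 and 0.0449. Blood and spleen libraries did not overlap for these 6 genes and for Thbs1, which held for 17.2% of all features in that direction. Vcan (2.23, SE 1.06), Thbs1 (3.00, SE 1.18), Tgfbi (0.57, SE 0.58) and Gpnmb (0.70, SE 1.03) were not called by edgeR, and the median of the 10 genes was 2.33 beside -0.14. DESeq2 called Vcan (2.35, adjusted p = 0.0473) and Thbs1 (3.11, 0.0104) as well, and 9.59% of all features higher. Without the third resected spleen library Vcan (3.91) and Thbs1 (5.61) were called by edgeR, and Spp1, Fn1 and Ecm1 reached 7.41, 5.80 and 7.30. Tgfbi and Gpnmb moved to 1.46 and 2.66 without it, with edgeR adjusted p-values of 0.101 and 0.106, and both were called at these values (0.0211 and 0.0346) when the third intact blood library was left out too. Ecm1 lost its call without the first or second resected spleen library (both 4.02) or the second resected blood library (4.52), and Sparc without any 1 of 7 libraries (1.61 to 2.06, the first and the third intact spleen, all 3 resected spleen and the second and the third resected blood libraries). Each group serves in 2 of these comparisons, so the comparisons are not independent of each other.

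Together the 10 genes took 1.41% to 2.32% of gene counts in resected blood, 0.363% to 0.605% in intact blood, 0.0734% to 0.133% in intact spleen, and 0.0983%, 0.0982% and 0.505% in the 3 resected spleen libraries. To compare levels between genes, CPM was divided by the length of the longest coding transcript in GENCODE M21. On this scale, CPM per kilobase, Tgfbi (94.2), Fn1 (44.1) and Cd9 (33.2) led in intact spleen, and Fn1 (519), Ecm1 (101) and Cd9 (72.6) in intact blood. In resected blood the order was Fn1 (2029.8), Spp1 (677), Ecm1 (661), Thbs1 (444), Tgfbi (341), Cd9 (179.6), Vcan (59.4), Trem2 (17.2), Sparc (1.54) and Gpnmb (0.361). The ranges of Spp1 (541 to 798) and Ecm1 (645 to 676) overlapped. Spp1 was in place 7 of the 10 in each of the other groups. Gpnmb was the lowest and Sparc the next lowest in all 4 groups.

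Markers of other cell types moved with the groups. The summed level of 6 peritoneal macrophage markers (Gata6, Alox15, Prg4, Timd4, Garnl3 and Serpinb2) was 4217 to 5327 CPM in resected blood, 286 to 923 in intact blood, 12.02 to 19.1 in intact spleen and 7.42 to 14.2 in resected spleen. All 6 were called higher in blood than in spleen in both states, and 5 of 6 after resection in blood. Of all features 3.86% were called higher in blood than in spleen in intact and 6.28% in resected mice, and 7.80% after resection in blood. Gata6, the transcription factor that defines these macrophages, lay at 17.7 to 23.7 CPM in resected blood, 2.85 to 5.86 in intact blood and 0 to 0.164 in spleen. Fn1, Ecm1 and Trem2, called higher in blood than in spleen in both states, shared that step between tissues with these markers. Within intact blood the first library held the most Fn1, Ecm1 and markers (923 CPM), and the third held the most Trem2. Within intact spleen the second library held the most of these genes and the least of the markers (12.02 CPM). Within resected spleen the third library held the most of these genes and the least of the markers (7.42 CPM). Within resected blood the third library held the most Fn1 and the least of the markers (4217 CPM). Ecm1, Trem2 and the markers (5327 CPM) were highest there in the second library, although Ecm1 spanned only 1225 to 1284 CPM in that group. The part of cells with these markers in the levels of the 10 genes was not tested.

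Of the 7 monocyte markers, Fcgr1, Itgam and Cd14 were called higher and Cx3cr1 lower after resection in blood (Itgam and Cd14 lost the call in 4 and Cx3cr1 in 2 of the 12 fits that left out 1 library), and the summed level of the list was 917 to 2020.4 CPM in intact and 4157 to 8136 CPM in resected blood. Csf1r, Ccr2 and Ly6c2 were not called. Ly6c2 lay at 77.0, 70.0 and 13.4 CPM in intact and 31.0, 41.6 and 35.2 CPM in resected blood. The 9 neutrophil markers summed to 3565, 4284 and 18856 CPM in resected blood and 104 to 327 CPM in intact blood. All 9 were called higher, beside 7.80% of all features. The third resected blood library, which held the most of these markers, was also the highest of its group for 6 of the 10 genes, with Vcan at 2.94 and Thbs1 at 3.16 times the mean of the other 2 libraries. Red pulp macrophage markers summed to 1117 to 1673 CPM in resected and 164 to 673 CPM in intact blood, with 6 of 8 called higher, again beside 7.80% of all features. The part of these cells in the changes was not tested.

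Thbs1, Sparc and Cd9 are also known from platelets. The 12 platelet and megakaryocyte markers summed to 899 to 988 CPM in resected blood, 125 to 448 CPM in intact blood and 19.3 to 38.4 CPM in spleen. Pf4 was the only 1 of the 12 called after resection in blood (3.71, SE 0.71, edgeR adjusted p = 0.00656), at 537 to 643 CPM against 20.2 to 72.7. It held most of the summed level in resected blood, and the median log2 fold change of the 12 was 0.43. Of the 12, 11 were called higher in blood than in spleen in intact mice (3.86% of all features) and all 12 in resected mice (6.28%). The part of platelets in the tissue differences above was not tested. The 9 fibroblast markers summed to 14.3 to 32.4 CPM in resected blood, 3.39 to 7.93 CPM in intact blood and 2.02 to 5.29 CPM in spleen. Of these markers 1 was called higher in blood after resection (7.80% of all features), Pdpn, which macrophages also express. Of 6 fibroblast markers tested, 3 were called higher in blood than in spleen in intact (3.86% of all features) and 4 in resected mice (6.28%), among them the collagen genes Col3a1 and Col1a2. The other 2, Pdgfrb (-1.46) and Pdgfra (-1.99), were called lower in resected blood than in resected spleen, and lost that call in 11 and 10 of the 12 fits that left out 1 library. The 8 endothelial markers summed to 2.91 to 9.61 CPM, which in every group lay above the levels of Sparc and Gpnmb. Tie1 was called higher after resection in blood (1.30, edgeR adjusted p = 0.0335, the call lost in 9 of the 12 fits), and Egfl7 lower in resected blood than in resected spleen (-3.26, 0.0150, lost in 3). The part of endothelial cells and fibroblasts in the levels of Sparc and Gpnmb was not tested. The 6 hepatocyte markers summed to at most 1.68 CPM. The 4 B cell markers summed to 3247 to 3697 CPM in intact spleen, where the 7 monocyte markers summed to 968 to 1210 CPM. In resected spleen the B cell markers summed to 2570, 2006 and 877 CPM in libraries 1, 2 and 3. In blood they summed to 407 to 1844 CPM in intact and 552 to 1439 CPM in resected mice. The 6 dendritic cell markers summed to 25.6 to 198 CPM. No gene of either list was called after resection in blood or spleen. The part of B cells in the values of the 10 genes was not tested.

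**Figure D4:**
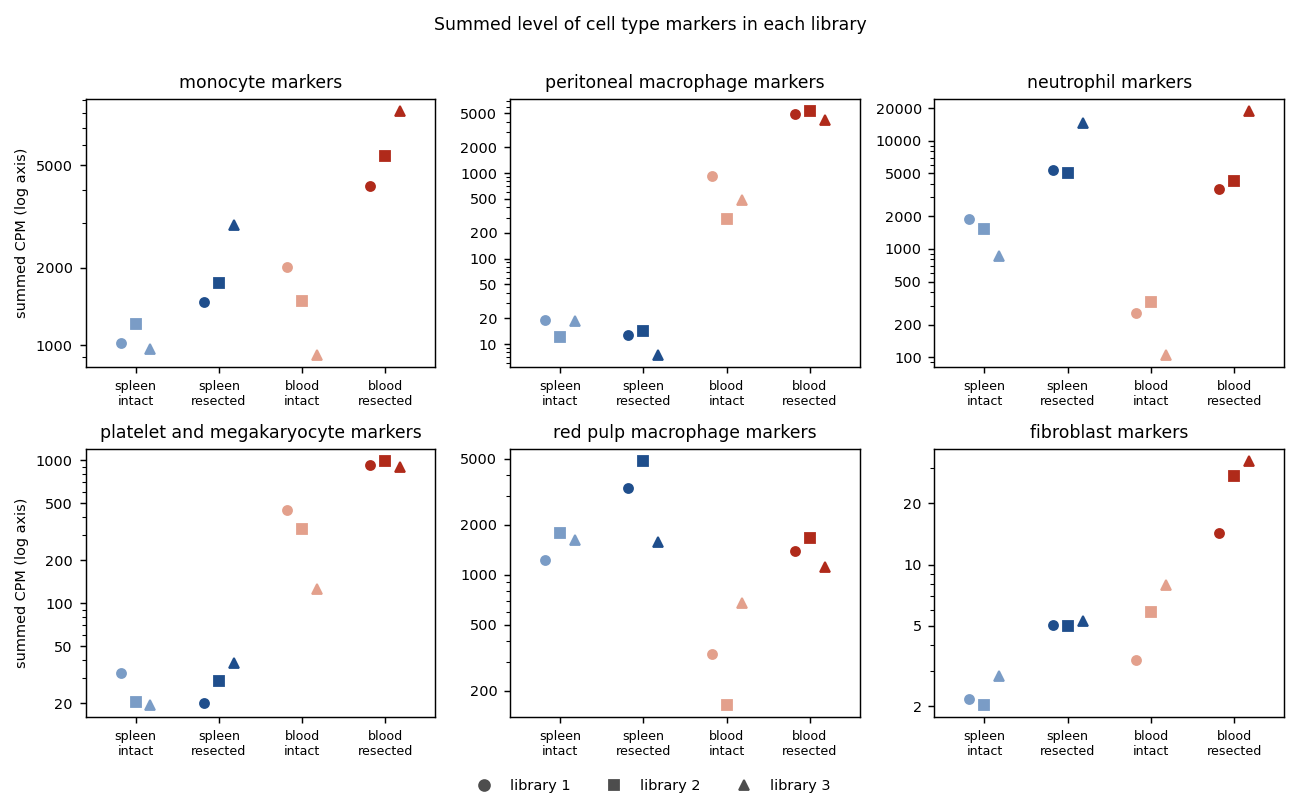
Summed level of 6 lists of cell type markers in each library, in CPM on a log axis, for the 4 groups, with a marker shape for the library number. Peritoneal macrophage markers reach 4217 to 5327 CPM in resected blood, and neutrophil markers are highest in the third resected library of each tissue (14449 CPM in spleen, 18856 in blood).

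Receptors for these matrix proteins numbered 18, of which 7 rose in blood after resection and none fell, with a median log2 fold change of 0.79. In that comparison 13.9% of all features were called in either direction. Itgb1, the beta subunit shared by fibronectin receptors, rose by 1.05 (SE 0.14, edgeR adjusted p = 0.00148), from 383 to 388 CPM in intact to 766 to 850.0 CPM in resected blood. Its partner for fibronectin, Itga5, rose by 2.65 (SE 0.59), and Cd44, a receptor of osteopontin and hyaluronan, by 1.66 (SE 0.33), with edgeR adjusted p-values of 0.0121 and 0.00794. The toll-like receptor Tlr2, which binds versican, the heparan sulphate proteoglycan Sdc4 and the endocytic receptor Lrp1 rose by 2.75, 4.48 and 1.52. Itgav, the alpha subunit of osteopontin receptors, had 0.25 (SE 0.17, edgeR adjusted p = 0.333). In spleen none of the 18 was called by edgeR after resection (median 0.32, with 3 higher and 1 lower at an unadjusted p under 0.05), where 1.38% of all features were called. Itgb1 was also called higher in blood than in spleen in intact mice (1.38, SE 0.14) and in resected mice (2.16, SE 0.15).

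The Trem2 adaptor Tyrobp rose after resection in blood by 1.82 (SE 0.35, edgeR adjusted p = 0.00696), from 66.7 to 204 CPM in intact to 442 to 585 CPM in resected libraries. Of the 11 Trem2 signalling genes, 5 were called higher in blood, beside 7.80% of all features, with a median of 0.72. Trem1 and Trem3, receptors that use the same adaptor, rose by 4.36 and 3.17, and Adam17, the protease that sheds Trem2, by 1.26 (0.99, under the limit of the call, without the third resected blood library). In spleen 0 of 11 were called by edgeR, beside 1.38% of all features, 3 were higher at an unadjusted p under 0.05, and Tyrobp had 0.59 (SE 0.34). Between tissues, Inpp5d (-1.17) and Trem3 (-1.92) were called lower in intact blood than in intact spleen, both calls being lost in each of the 12 fits that left out 1 library, and none was called in resected mice.

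A further 16 genes of repair or lipid-handling macrophages were examined beside the membrane proteins. After resection in blood 9 of them were called higher and none lower, beside 7.80% of all features called higher, with a median log2 fold change of 2.04. The lysosomal proteases Ctsd, Ctsb and Ctsl rose by 2.73, 2.08 and 4.02, and the lysosomal membrane protein Cd68 by 2.19 (edgeR adjusted p = 0.000394, 0.00075, 0.00215 and 0.000499). Ctsd reached 2935 to 3482 CPM in resected blood, against 413 to 564 CPM in intact blood. In spleen Ctsd (1.32, edgeR adjusted p = 0.0253) and Ctsb (1.09, 0.0420) were called higher, 2 of the 16 beside 0.780% of all features, with a median of 1.15. Ctsd lost the call in 5 of the 12 fits that left out 1 library (1.09 to 1.47) and Ctsb in 11 (0.91 to 1.24). Over all features the spleen calls fell from 277 to 1 without the first and to 3 without the second intact spleen library. Arg1, the arginine-cleaving enzyme of repair macrophages, was called higher in blood than in spleen in intact (7.88, SE 1.86) and in resected mice (5.95, SE 1.54), and Mmp12, an elastase, was called lower in intact blood (-3.14, SE 0.74, the call lost in 6 of the 12 fits). Arg1 lay at 3.80, 0.719 and 72.0 CPM in the 3 intact blood libraries, against at most 0.209 CPM in intact spleen. Without the third of these blood libraries its difference between intact tissues was 4.48 and not called (edgeR adjusted p = 0.0524). Its call after resection in blood (4.75) was lost in 10 of the 12 fits that left out 1 library and stood at 8.24 without that library, and between resected tissues the call was lost in 4 (5.63 to 7.29 over the 12).

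The remaining matrix glycoproteins did not move one way. Of 28 listed, 20 were tested, and 7 were called higher and 2 lower after resection in blood (median 1.31), where 13.9% of all features were called in either direction. Srgn, the granule proteoglycan serglycin, Emilin1, Nid2 and Efemp2 rose by 2.60, 2.79, 2.38 and 1.85. Smoc2 and Matn2 were called lower, at -5.70 and -3.07, and both values rested on the third intact blood library. It held 83.9 CPM of Smoc2 where the other 2 held 1.84 and 2.21, and resected blood 0.310 to 0.763. It held 9.70 CPM of Matn2 where the other 2 held 0.826 and 0.976, and resected blood 0.238 to 0.671. Without it the log2 fold change of Smoc2 was -1.85, still called, and that of Matn2 -0.99, not called (edgeR adjusted p = 0.228). In spleen 1 of the 20 was called after resection, beside 1.38% of all features. It was Postn, the integrin ligand periostin, at 2.48 (SE 0.54, edgeR adjusted p = 0.0493), with 41.7 to 88.7 CPM in resected and 4.52 to 18.9 CPM in intact libraries. That call was at the threshold and was lost in 11 of the 12 fits that left out 1 library (2.07 to 2.88). Postn was at most 0.442 CPM in blood and was called lower there than in spleen in intact (-8.14) and in resected mice (-7.53). Most calls between tissues went the other way. In intact mice 7 of the 20 were called higher in blood and 1 lower (median 1.28), where 7.35% of all features were called. In resected mice 7 were called higher and 2 lower (median 1.74), where 13.2% of all features were called.

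Of 16 TGF-beta pathway genes, 4 were called higher after resection in blood, where 7.80% of all features were, with a median log2 fold change of 0.23 beside -0.10. In spleen none of the 16 was called by edgeR, 2 were higher and 1 lower at an unadjusted p under 0.05, and the median was -0.25. Ltbp1, which holds latent TGF-beta in the matrix, the activating protease Furin and the repressor Tgif1 rose in blood by 2.46, 1.61 and 1.50, and Furin lost the call in 3 and Tgif1 in 4 of the 12 fits that left out 1 library. Of 12 tetraspanins and their partners, listed beside Cd9, Tspan4 (2.55) and Igsf8 (1.42) were called higher in blood after resection (again beside 7.80% of all features), none was called by edgeR in spleen, where 4 were higher at an unadjusted p under 0.05, and the medians were 0.56 and 0.14.

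**Figure D5:**
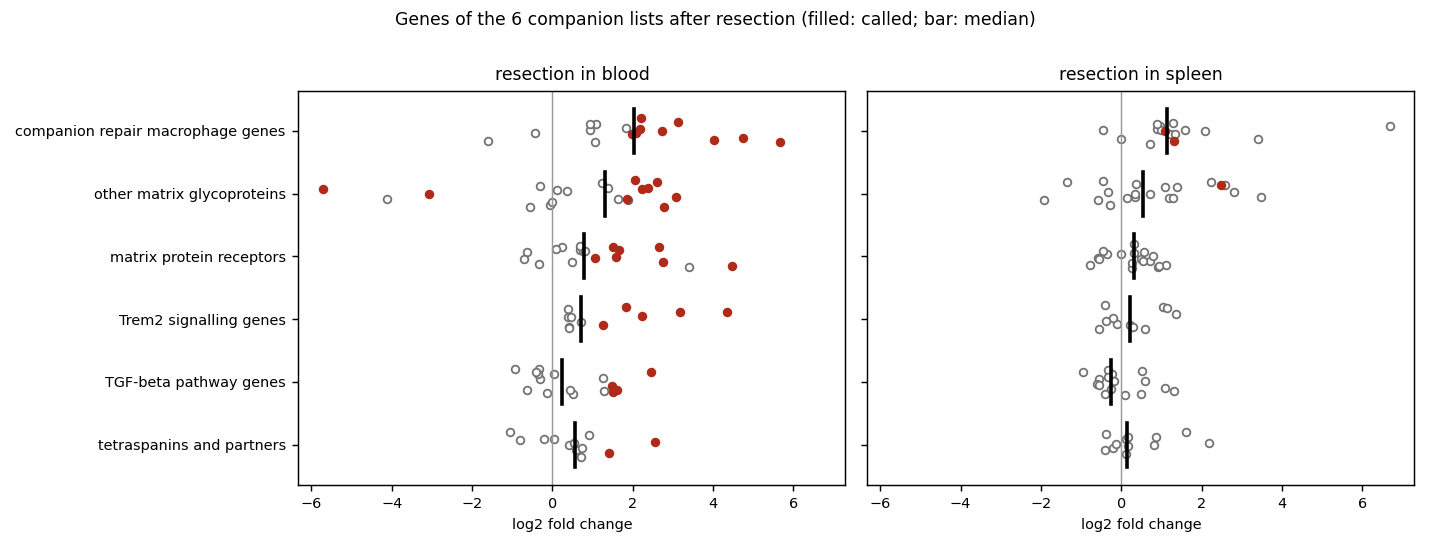
Log2 fold change of each tested gene of 6 companion lists after resection in blood and in spleen, with the median of each list as a bar and called genes filled. In blood 34 of 93 genes are called higher (7.80% of all features) and 2 lower, and in spleen 3 are called higher (0.780% of all features).

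The 2 features with the most similar levels over the 12 libraries were sought for each gene among about 7096 with a mean of at least 20 CPM, by Pearson's r of log2 CPM. All libraries enter these values, so the large step between resected blood and the rest is shared by most pairs and the values are a description. Ecm1 was closest to Fn1 itself (0.989), followed by Fam20a (0.987), and Fn1 to Efnb2 (0.991) and Adam15 (0.99). Thbs1 lay nearest to F13a1 (0.98), which encodes a subunit of a clotting factor, and Hif1a (0.975). Trem2 lay nearest to Grpel1 (0.983) and Arg1 (0.981). The nearest features were Gaa (0.98) and Rpn2 (0.98) for Spp1, Sema6b (0.978) and Clec4e (0.963) for Vcan, and Dhrs7 (0.991) and Arrb2 (0.987) for Tgfbi. Cd9 was nearest to Myl6 (0.987) and Prdx6 (0.986), Gpnmb to Pef1 (0.958) and Ccdc115 (0.951), and Sparc to Gipc1 (0.972) and Cfl1 (0.946).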

How the data were processed

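Each library came as a table of 67088 entries, deposited by the authors as estimated counts and named by gene symbol (24256), by RefSeq accession (40274) or as unassigned transcripts (2558, holding 1.75% to 4.33% of a library). The submitters' processing notes name STAR and build GRCm39, while the counting tool and the annotation are not given in the sources used here. Libraries were strand-specific mRNA libraries by the labels. The sequencing instrument differs between the sources.

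Unassigned entries were left out. Accessions were matched to symbols through a RefSeq gene table (25340 matched, 14934 kept under their own names) and entries of a gene were summed, which gave 52553 features. For 9 of the 10 genes this was a single entry, and for Tgfbi the symbol entry held 97.9% of the count. Estimated counts were rounded to whole numbers. edgeR 4.0.16 in R 4.3.3 was used with filterByExpr, TMM scaling (factors 0.661 to 1.26), and a robust quasi-likelihood fit of all 12 libraries in 4 groups without covariates, giving 20135 tested features and a common dispersion of 0.312. CPM denotes counts per 1000000 of the TMM-scaled library, and log2 CPM used a prior count of 2. Each SE of a log2 fold change rests on an estimate of the spread that all groups in the fit share. It is therefore not a measure of the compared libraries alone. For Ecm1 after resection in blood, at 2.71, the SE was 1.03 in the reported fit. It was 0.44 at the same value when the third resected spleen library was left out. Values after ± are standard deviations within a group. Depth set little limit except for Gpnmb and Sparc. The script was tested on simulated data with known changes. Those data had a smaller spread between libraries than the real ones, so the test does not measure how reliable the calls here are.

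Members and lists were chosen with earlier results of these data known. From each companion list, at most 4 called and non-overlapping genes with the smallest p per comparison were named, and Tyrobp, Cd44, Itgav, Itgb1 and Itga5 whatever their values. Further examples from a list were chosen after their values were seen, and 1 item is not reported here. Alternatives were RLE factors, DESeq2 1.42.0, no filter, at least 10 counts in every library, entries as deposited, haemoglobin genes left out, a replicate block, only the 2 groups compared, and each of the 12 libraries left out in turn. Samples of a group differed by at least 20.2 in chi-square per degree of freedom, so none was counted as a duplicate.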

Additional observations from a re-analysis of the deposited data

Results flagged for a closer look

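The response to resection was larger in blood than in spleen for Spp1, by the test of the difference itself. The log2 fold change was 8.83 in blood and 2.04 in spleen, a difference of 6.80 (edgeR adjusted p = 0.0317), and every resected library lay above every intact one in both tissues. The difference is between changes in the same direction.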

How the results depend on the processing

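Of 1034 values of the 10 genes under the alternatives, over 50 pairs of gene and comparison, 914 kept their direction and their side of the threshold, 66 lost the call, 33 gained one and 21 turned direction. Most of the 50 pairs were not called in the reported fit, and only a called pair can lose its call. The 1034 values include the alternative chosen after seeing the data, described below. No value turned in the resection comparison of blood or between resected tissues. The number of the 10 genes called, when each library was left out in turn, ranged from 3 to 9 for resection in blood, 0 to 2 for resection in spleen, 0 to 3 between intact tissues, 4 to 7 between resected tissues and 0 to 1 for the difference between tissues. Over all features the fits with 1 library left out called 7.71% to 13.4% for resection in blood and 0.00473% to 4.87% in spleen. Between intact tissues they called 2.51% to 7.09%, between resected tissues 6.88% to 17.2%, and for the difference 0.0236% to 0.442%. DESeq2 called 2 for resection in spleen (7.77% of all features) and 2 for the difference (5.78%). A minimum of 10 counts in every library gave 1 for resection in spleen (3.61%).

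Direction turned for resection in spleen without the third resected spleen library, at -0.18 for Fn1, -0.15 for Vcan, -1.10 for Thbs1 and -0.41 for Ecm1, while the highest values with 1 library left out were 1.53, 1.90, 1.91 and 2.86. Between intact tissues it turned for Gpnmb without the third intact spleen library (-0.11) or the third intact blood library (-0.96, highest 1.00), for Spp1 without the first intact spleen library (0.05) or the first (0.18) or the second (0.15) intact blood library (lowest -1.15), and for Thbs1 without the first intact blood library (-0.46, highest 1.01). For the difference between tissues it turned for Gpnmb without the first intact (-0.20) or the first resected (-0.01) spleen library (highest 2.31), and for Ecm1 without the second intact (-0.07) or the first or the second resected spleen library (both -0.15, highest 3.12). These fits differ from the reported one in having 1 sample fewer and in repeating the filter and the scaling. They tested 21042 to 21192 features, against 20135 in the reported fit.

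An alternative chosen after seeing the data left out the third intact blood and the third resected spleen library together. It called 9 genes for resection in blood (all but Cd9, at 0.96), where 14.2% of all features were called, and 1 for resection in spleen (2.59%). Between intact tissues it called 5 (8.74%), 4 higher in blood and Spp1 lower, at -1.15 (edgeR adjusted p = 0.0267). Between resected tissues it called 10 (20.3%), and for the difference 2 (1.71%). The reported fit called 13.9%, 1.38%, 7.35%, 13.2% and 0.283% of all features in these comparisons. The alternative gave -0.18, -0.15, -1.10 and -0.41 for Fn1, Vcan, Thbs1 and Ecm1 in spleen and -0.96 for Gpnmb between intact tissues.

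Groups share replicate numbers, and over 18 pairs of same-numbered libraries the correlation of their deviations ran from -0.046 to 0.189, 2 of them over 0.1. Among the 3 libraries of another group, a library correlated best with its own number in 18 of 36 comparisons. These values do not settle whether the numbers pair the samples, and the reported fit did not pair them. With the replicate number as a block, 1 gene was called between intact tissues (5.77% of all features) and 0 for the difference (0.00497%), where Spp1 had 7.32 (edgeR adjusted p = 0.0505), and Gpnmb turned to -0.51 between intact tissues. Over all features the block took the calls from 2801 to 2168 for resection in blood and from 57 to 1 for the difference. Thbs1 (3.62) and Tgfbi (2.26) were not called for resection in blood under the block. In that comparison Thbs1 also lost its call with no filter on low counts (3.87) and with entries as deposited (3.89). With only the 2 groups compared in the fit, Tgfbi (2.39), Cd9 (1.31) and Sparc (2.04) lost theirs, and Fn1 (1.97) and Ecm1 (2.71) gained one. The cause of changes under DESeq2 and the block was not tested. Depth limits Gpnmb, whose intact libraries held 2 to 20 counts.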
